A study of Mus musculus with 6 samples.

Results

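Plakins are giant linker proteins of the cytoskeleton, and dystonin, the product of Dst, is the plakin altered in dystonia musculorum mice. The family was taken as the 7 genes Dst, Macf1, Plec, Dsp, Ppl, Evpl and Eppk1, each read through every non-control array probe whose transcript belongs to it. Probes were matched for 5 of the 7, out of 17174 genes named on the array, by 10 of 41174 probes: 3 probes of Dst, 3 of Plec, 2 of Evpl and 1 each of Ppl and Eppk1. No probe was matched to Macf1 or Dsp, which are not analysed here. Dorsal root ganglia, which house the cell bodies of sensory neurons together with glia, were taken from 3 dt27J and 3 WT mice. All animals were of the C57BL/6 background at postnatal day 4, described as a stage before the phenotype, and the WT animals were littermate controls from 2 litters in all. dt27J is a mutant Dst allele, and neither the animals' zygosity nor the part of the gene it alters is given in the sources used here. Each animal's RNA was hybridised to 1 single-colour array, with dt27J 1, dt27J 2, WT 1 and WT 2 under a first label date and dt27J 3 and WT 3 under a second. The comparison asked whether any paralogue changed in the ganglia in which Dst fell.

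Plakins share a plakin domain or plakin repeats and tie intermediate filaments, microtubules and actin to one another and to membrane junctions. Dst and Macf1 are spectraplakins, with spectrin repeats and a Gas2 domain that binds microtubules, and Dst gives rise to neuronal, muscle and epithelial isoforms. Plectin (Plec) anchors intermediate filaments in most tissues, while desmoplakin (Dsp), periplakin (Ppl), envoplakin (Evpl) and epiplakin (Eppk1) are known mainly from epithelia. Loss of dystonin in the mouse causes a sensory neuropathy with degeneration of dorsal root ganglion neurons.

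Dst is annotated on mouse chromosome 1, and the promoter table from RefSeq (GRCm38.p6) holds 2 start regions for it on the plus strand, 148665 bases apart. They are shown because the Dst probes were matched to 2 different transcripts, NM_134448 and NM_133833, and the sources used here do not say from which start either transcript arises. Each region is 300 bases long, and capitals mark the motif GGGCGG, a GC box, on either strand.
Dst upstream start, chr1:34011345-34011644: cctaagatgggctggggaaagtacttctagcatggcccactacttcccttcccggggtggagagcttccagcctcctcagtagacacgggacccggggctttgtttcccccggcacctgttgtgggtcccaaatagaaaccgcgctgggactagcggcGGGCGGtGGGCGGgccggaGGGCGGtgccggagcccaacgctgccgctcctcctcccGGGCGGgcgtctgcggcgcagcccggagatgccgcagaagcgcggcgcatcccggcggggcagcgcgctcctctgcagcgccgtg
Dst downstream start, chr1:34160010-34160309: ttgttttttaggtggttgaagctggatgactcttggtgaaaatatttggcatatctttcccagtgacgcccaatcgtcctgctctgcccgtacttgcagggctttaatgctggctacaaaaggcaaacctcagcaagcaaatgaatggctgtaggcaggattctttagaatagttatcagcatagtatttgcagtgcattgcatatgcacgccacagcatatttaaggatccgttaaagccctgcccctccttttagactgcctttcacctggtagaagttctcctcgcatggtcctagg
The upstream region had 70.3% G and C, 31 CG dinucleotides and 4 matches to GGGCGG, which 35.7% of 32851 such regions hold. The downstream region had 46.0% G and C, 6 CG dinucleotides, beside a median of 7 over all regions, and 0 matches. Neither held TATAAA on either strand, which 13.6% of all regions do. A match is a run of letters and not a measured binding site.

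Dst fell in dt27J ganglia on its brightest probe, and its dimmer probes read lower there as well. Values are log2 of the processed signal above the 75th percentile of the array, so that 0 is the level below which 75% of that array's spots lay. The probe A_51_P300434, matched to NM_134448, stood at -1.63, -1.77 and -0.96 in dt27J 1, 2 and 3, against 1.15, 1.44 and 1.099 in WT 1, 2 and 3. All 3 dt27J arrays lay below all 3 WT arrays, and dt27J 3, of the second date, was the highest of the dt27J arrays. The fold change, dt27J minus WT with date as a term, was -2.68 (SE 0.26, n = 3 arrays per genotype, adjusted p = 0.0341, limma), which is 15.6% of the WT signal with a 95% interval of 10.2% to 23.8%.

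The second probe of the same transcript, A_52_P184304, read a dimmer signal. It stood at -5.10, -5.42 and -4.27 in dt27J 1, 2 and 3, against -2.47, -2.51 and -2.56 in the WT arrays, a log2 difference of -2.42 (SE 0.27, adjusted p = 0.0376, limma). The SD of this probe was 0.60 among the dt27J arrays and 0.045 among the WT arrays, and the genotypes did not overlap. The probe A_52_P445253, matched to NM_133833, stood at -5.97, -4.90 and -4.18 in dt27J 1, 2 and 3, against -2.28, -2.78 and -2.62 in the WT arrays. Its log2 difference was -2.46 (SE 0.40, adjusted p = 0.0454, limma), and again no dt27J array reached the lowest WT array. On each of these dimmer probes 2 of the 3 dt27J arrays were well above background, the scanner software's call that a spot exceeds its local background. A_52_P184304 missed that call on dt27J 2 and A_52_P445253 on dt27J 1. Both probes entered the test only through the WT arrays, where they are high, so their differences are given as a description beside that of A_51_P300434, which was well above background on all 6 arrays. With normexp background correction the log2 differences were -1.90 for A_51_P300434 (adjusted p = 0.0285, limma), -0.75 for A_52_P184304 (0.0846) and -0.64 for A_52_P445253 (0.129).

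**Figure D1:**
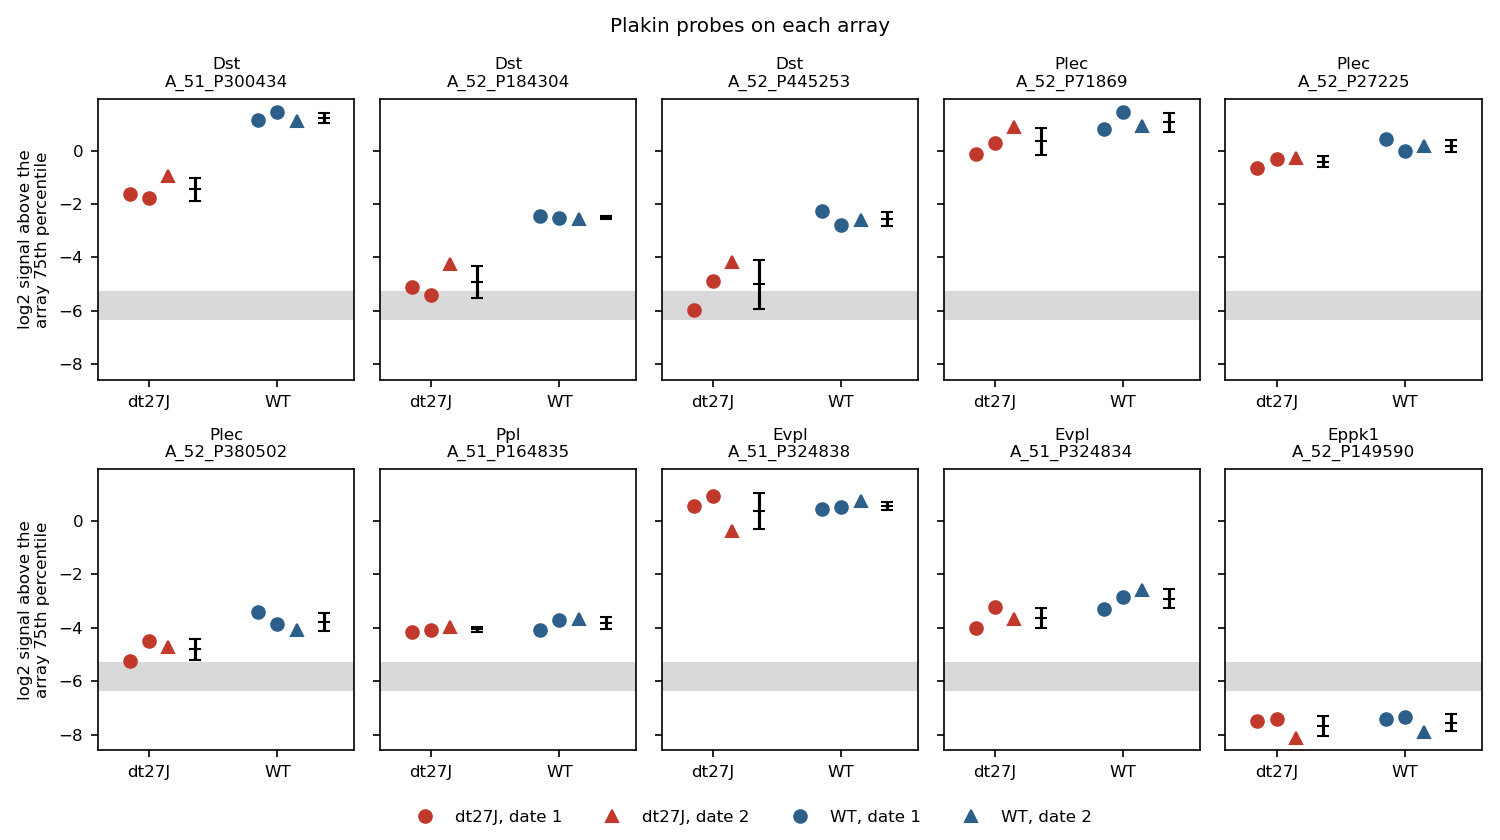
Log2 signal above the array's 75th percentile (vertical axis) for each of the 10 plakin probes in the 3 dt27J arrays (red) and the 3 WT arrays (blue), with circles for the first date, triangles for the second, and the mean ± SD in black. The grey band spans, over the 6 arrays, the lowest signal of any probe well above background. The dt27J and WT arrays stand apart on the 3 Dst probes, and every Eppk1 value lies below the band.

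The threshold of 0.05 on the adjusted p was passed by 838 of the 26248 probes tested, or 3.19%, with 1.88% lower and 1.31% higher in dt27J. The direction of that split depended on the processing. More probes were higher after normexp (260 against 95 lower), after quantile normalization (537 against 440) and in the authors' values (614 against 561). More were lower after median scaling (429 against 332 higher) and with only probes well above background on all 6 arrays (453 against 353). After normexp with high local backgrounds replaced, 801 were lower and 589 higher. Of the 9 tested plakin probes, 7 met the background call on all 6 arrays, and among those A_51_P300434 of Dst was the 1 that passed (adjusted p = 0.0441 when the test was restricted to such probes, limma). The other 2 that passed were the dimmer Dst probes, which had entered through the WT arrays alone. By size A_51_P300434 ranked 67 among the falls of all tested probes. On 5 of the 9, the 3 Dst probes (2 of them admitted through WT) and 2 of Plec, the highest dt27J value was under the lowest WT value, a pattern shown by 16% of all tested probes.

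The Dst difference was negative within both dates. In the first date, with 2 arrays per genotype, the 3 probes stood at -3.00, -2.77 and -2.91, which is 12.5% of WT on A_51_P300434. In the second date, with 1 array per genotype, they stood at -2.05, -1.71 and -1.56, which is 24.1% of WT on the same probe. The interaction of genotype and date missed the threshold on each, with adjusted p values of 0.154, 0.127 and 0.254 (limma), beside 0.831% of all tested probes that passed it and 27.5% with an unadjusted p under 0.05. Unadjusted, the interaction p was 0.0345, 0.0226 and 0.0960. Without both arrays of the second date, added once the values had been seen, A_51_P300434 had an adjusted p of 0.00297 (limma). The dimmer Dst probes, admitted through the WT arrays, had 0.00357 and 0.0112 there (limma). In that fit 6860 of 26480 tested probes passed. Without WT 1, WT 2 or dt27J 1 none of the 3 Dst probes passed, with adjusted p values of 0.147 to 0.246 over these 3 fits (limma). Of all tested probes, 1, 0 and 0 passed in these fits. The log2 differences of A_51_P300434 there were -2.67, -2.51 and -2.63. Without dt27J 2, where 166 of 26675 probes passed, the adjusted p of A_52_P445253 was 0.0764 (limma).

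**Figure D2:**
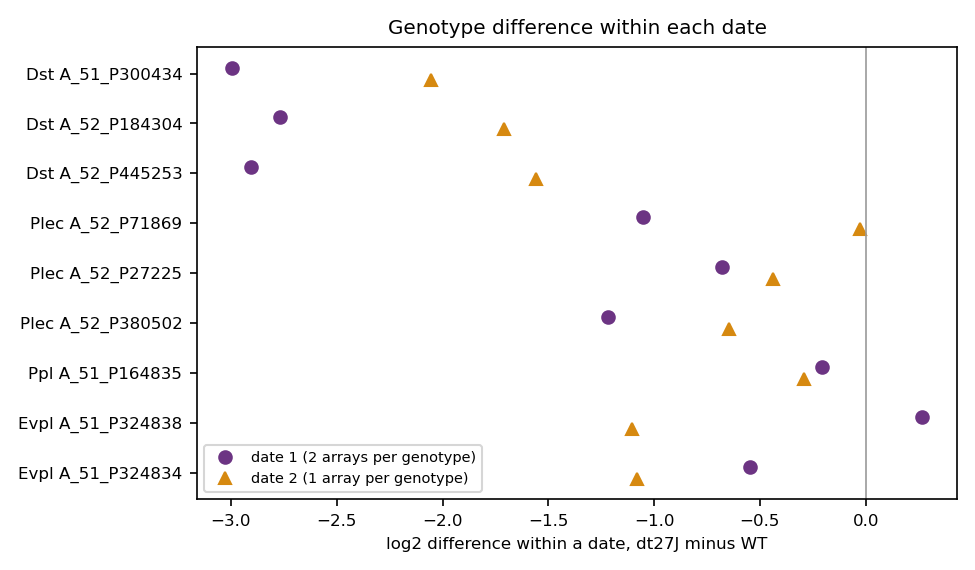
Log2 difference of dt27J minus WT within the first date (circles, 2 arrays per genotype) and within the second date (triangles, 1 array per genotype) for the 9 tested plakin probes. The Dst probes lie between -3.00 and -2.77 in the first date and between -2.05 and -1.56 in the second, and the brighter Evpl probe lies on opposite sides of 0.

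Transcripts of other cells differed between these samples as well. Of 8 genes chosen to mark sensory neurons, 7 were measured and all 7 had fold changes under 0 (median -1.08). On the brightest probe of each gene 1 of the 7 passed the threshold, beside 3.19% of all tested probes, and so did a further probe of Pou4f1, a sensory neuron transcription factor (-1.28, adjusted p = 0.0472, limma). The summed level of these 7 was 386 to 536 times the 75th percentile in dt27J arrays and 523 to 654 times in WT arrays. In bulk tissue, fewer cells of a type and less RNA per cell cannot be told apart, and the part of this in the Dst fall was not tested. Markers of spinal cord glia and interneurons summed to 0.306 to 0.504 in dt27J arrays, against 10.9, 9.49 and 0.396 in WT 1, 2 and 3. In the second date, with 1 array per genotype, that list stood at 0.504 in dt27J 3 and 0.396 in WT 3. A_51_P300434 of Dst stood at 12.5% of WT in the first date and 24.1% in the second. The part of spinal cord tissue in the Dst fall was not tested. Skeletal muscle markers summed to 42.6 to 81.2 in dt27J arrays and 13.9 to 40.0 in WT arrays, with 8 of 8 above 0 (median 1.87) and 3 past the threshold. Their median was 2.43 within the first date and 0.41 within the second, where Acta1 (-0.31) and Mylpf (-0.32) were under 0. A further probe of Myh1, which had passed on its brightest probe, stood at -0.17, while further probes of Myh3 and Tnnt3 stood at 2.12 and 1.97. Vessel markers were above 0 in 5 of 5 (median 1.02, with Tek past the threshold) and fibroblast markers in 6 of 6 (median 0.92, but -0.28 within the second date, with 0 past it). Of the glial markers, Egr2 of Schwann cells and Ednrb of satellite glia rose on their brightest probes, while 3 of 5 and 3 of 6 genes of those lists were under 0. A further Ednrb probe stood at 0.32 (adjusted p = 0.684, limma). Cdh19 of satellite glia was higher too, at 1.85. In WT 2 it stood at -5.61, under that array's lowest signal well above background, -5.37. Cdh19 thus entered the test only through the dt27J arrays, where it is high. The epidermis list summed to 1.22 to 1.58 in dt27J arrays and 1.63 to 2.02 in WT arrays, with involucrin (Ivl), 1 of its 8 genes, not well above background on any array.

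No paralogue probe passed the threshold, and all 6 that were tested had fold changes under 0, from -1.03 to -0.19 (median -0.65), beside a median of -0.050 and 14081 of 26248 under 0 over all tested probes. The brighter Evpl probe was above 0 after normexp (0.037), with array weights (0.25) and without the second date (0.27). The count was 3 of 6 at an unadjusted p under 0.05, where 27.7% of all tested probes had such a p. The smallest change of any probe that passed was 0.92 on the log2 scale, and no difference below that size was called with 3 arrays per genotype.

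Plectin came nearest. The dimmest of its probes, A_52_P380502, matched to NM_201385, stood at -5.23, -4.48 and -4.73 in dt27J 1, 2 and 3, against -3.41, -3.85 and -4.08 in WT 1, 2 and 3. All 3 dt27J arrays lay below all 3 WT arrays, and the fold change was -1.03 (SE 0.28, adjusted p = 0.0802, limma), or 49.0% of WT with an interval of 30.6% to 78.3%. After normexp, with its offset of 50, the same probe stood at -0.25, and at -0.37 with high local backgrounds replaced. Its processed signals were 14.2 to 21.9 in dt27J arrays and 30.1 to 45.6 in WT arrays.

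The other Plec probes were both matched to NM_201389 and read brighter signals. A_52_P27225 stood at -0.65, -0.30 and -0.28 in dt27J 1, 2 and 3, against 0.42, -0.024 and 0.16 in WT 1, 2 and 3, again with no overlap of the genotypes. Its fold change was -0.60 (SE 0.22, adjusted p = 0.147, limma), or 66.0% of WT with an interval of 45.6% to 95.7%. A_52_P71869 stood at -0.14, 0.29 and 0.88 in dt27J 1, 2 and 3, against 0.80, 1.46 and 0.91 in WT 1, 2 and 3. Here dt27J 3 lay within the range of the WT arrays, and the fold change was -0.71 (SE 0.31, adjusted p = 0.196, limma), or 61.1% of WT with an interval of 36.5% to 102%.

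The estimated Plec difference was smaller in the second date on each probe, and the interaction with date missed the threshold. In the first date A_52_P71869, A_52_P27225 and A_52_P380502 stood at -1.05, -0.68 and -1.22, and in the second at -0.027, -0.44 and -0.65. The interaction with date had adjusted p values of 0.245, 0.741 and 0.520 (limma). Without both arrays of the second date, A_52_P71869 and A_52_P380502 passed (adjusted p = 0.0483 and 0.0395, limma) and A_52_P27225 did not (0.0919). In that fit 6860 of 26480 tested probes passed. Leaving out WT 3 or dt27J 3 alone gives the same estimates by construction, since date is a term. With limma's array weights all 3 Plec probes passed, but under those weights 12199 of 26248 probes did.

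Periplakin, which joins envoplakin beneath the membrane of epithelial cells, was read by 1 probe, A_51_P164835. It stood at -4.14, -4.08 and -3.96 in dt27J 1, 2 and 3, against -4.08, -3.71 and -3.67 in WT 1, 2 and 3. The genotypes overlapped, and the fold change was -0.24 (SE 0.20, adjusted p = 0.469, limma). Its interval ran from 61.1% to 118% of WT, so a change as large as that of Dst lies outside it.

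Both Evpl probes were matched to NM_025276, and neither passed the threshold. The brighter one, A_51_P324838, stood at 0.55, 0.94 and -0.36 in dt27J 1, 2 and 3, against 0.45, 0.51 and 0.75 in WT 1, 2 and 3, so that dt27J 1 and 2 were above all WT arrays of their own date and dt27J 3 was the lowest of all 6. Its fold change was -0.19 (SE 0.32, adjusted p = 0.728, limma), with an interval of 51.7% to 149% of WT. The dimmer one, A_51_P324834, stood at -4.01, -3.23 and -3.67 in dt27J 1, 2 and 3, against -3.29, -2.86 and -2.59 in WT 1, 2 and 3. Only dt27J 2 reached the range of the WT arrays there, and the fold change was -0.72 (SE 0.28, adjusted p = 0.160, limma), or 60.5% of WT with an interval of 37.9% to 96.8%.

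Epiplakin, a protein of plakin repeats that binds keratins, was not well above background on any of the 6 arrays. Its probe A_52_P149590 lay between -8.12 and -7.43 in dt27J arrays and between -7.91 and -7.34 in WT arrays. The lowest signal of any probe well above background was -6.33 to -5.31 on these arrays, so neither a level nor a fold is given for Eppk1.

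**Figure D3:**
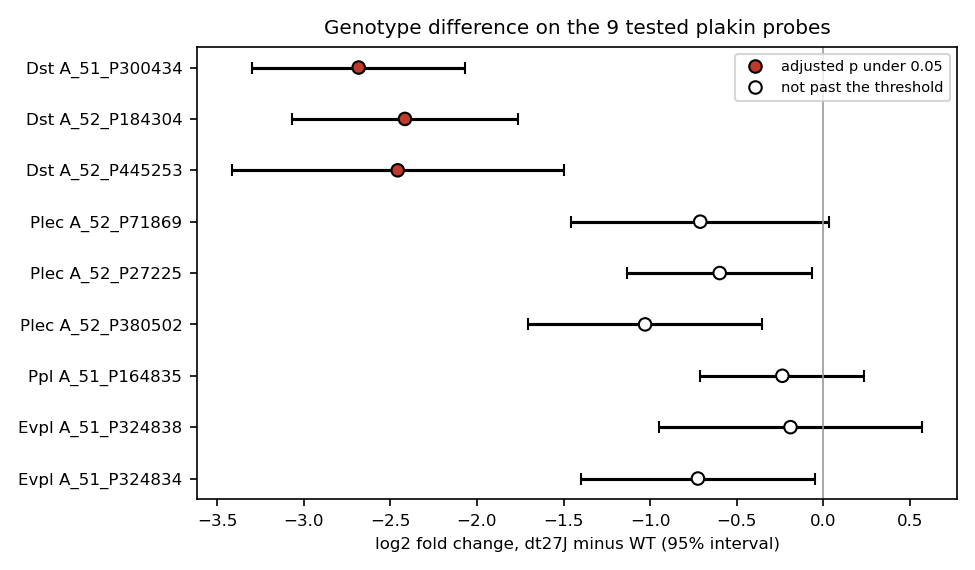
Log2 fold change of dt27J minus WT with its 95% interval from the limma fit for the 9 tested plakin probes, filled where the adjusted p is under 0.05. The intervals of the 3 Dst probes lie between -3.42 and -1.50. The 6 paralogue estimates lie between -1.03 and -0.19 and their intervals between -1.71 and 0.57. The interval of A_52_P380502 of Plec, from -1.71 to -0.35, overlaps that of A_52_P445253 of Dst.

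Whether Dst moved further than its paralogues was tested on the brightest probe of each gene as the difference between the Dst value and the paralogue value on the same array. The log2 fold change of Dst minus that of the paralogue was -1.97 for Plec, -2.45 for Ppl and -2.49 for Evpl. In all 3 comparisons the dt27J and WT arrays did not overlap. They did not overlap on A_51_P300434 alone either, so this separation is not a result about the paralogues. The exact two-sided permutation test gave p = 0.10 in each, which is the smallest that 3 arrays against 3 allow, and 0.10 after adjustment over the 3 comparisons, so this test cannot pass a threshold of 0.05 with these arrays.

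The profile over the 6 arrays was then set against that of all other named genes. The likeness was the root mean square difference between 2 profiles on the log2 scale after each probe was centred on its own mean, so that 0 is the same profile. The genes nearest to A_51_P300434 were Lypd1, a membrane protein that modulates nicotinic receptors (0.20), Lrrtm2, a synaptic adhesion protein (0.30), Scrt1, a neuronal zinc finger repressor (0.33), Tln2, which encodes talin 2 and links integrins to actin (0.35), and Tafa3, a secreted protein of the nervous system (0.36). Their fold changes lay between -2.43 and -2.01. The other Dst probes stood at 0.19 and 0.47 from it, and the paralogue probes at 0.92 to 1.41. These distances describe 6 arrays and carry no test.

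**Figure D4:**
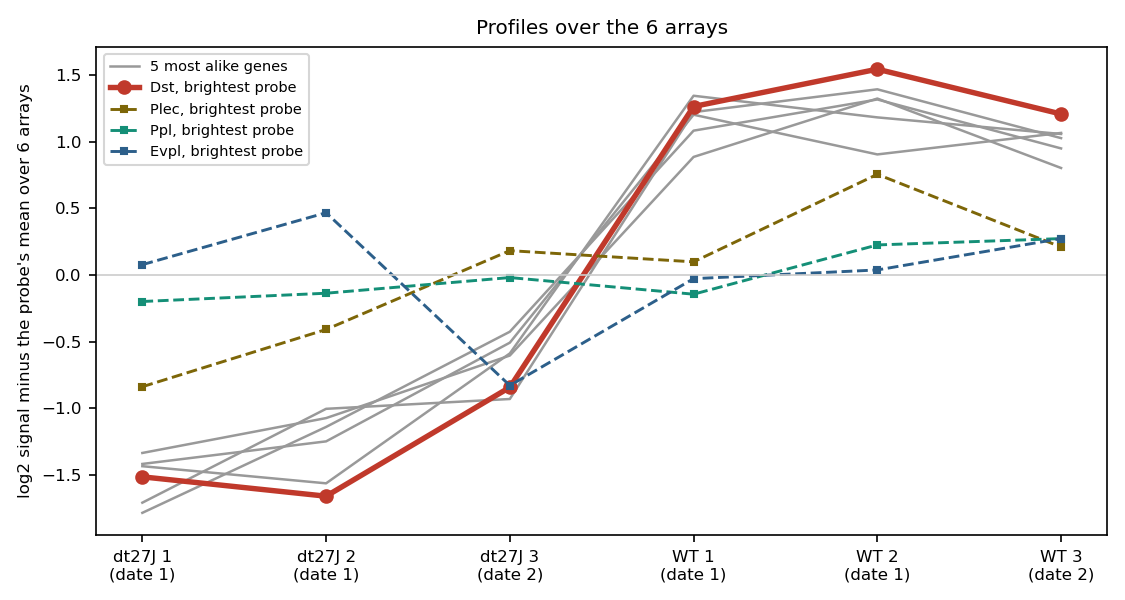
Log2 signal minus the probe's own mean over the 6 arrays for the brightest Dst probe (red), the 5 genes with the nearest profiles (grey) and the brightest Plec, Ppl and Evpl probes (dashed), with the dt27J arrays on the left. The Dst profile runs from -1.66 in dt27J 2 to 1.55 in WT 2, and the Plec, Ppl and Evpl profiles stay between -0.84 and 0.76.

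The genes that plakins work with were taken from 7 lists of 77 genes in all, of which 65 had a tested probe. By the brightest probe of each gene, 0 of 65 passed the threshold (limma), beside 3.19% of all tested probes, and 19 had an unadjusted p under 0.05, beside 27.7%. Fold changes were negative in 35 of the 65. The genotypes did not overlap on 13 genes that were lower in dt27J and 8 that were higher, beside 16% and 12.8% of all tested probes. Of 30 further tested probes of the same genes 3 passed, beside 0 of the 65 brightest and 3.19% of all tested probes. These 3 are named here after their values were seen. These were further probes of Clip2, a microtubule plus-end protein (-1.58, SE 0.24, adjusted p = 0.0432), of Itga3, an integrin subunit (-1.35, SE 0.24, adjusted p = 0.0472), and of Gas2l3, which has a Gas2 domain (1.04, SE 0.20, adjusted p = 0.0495). The brightest probes of Clip2 (-0.69, adjusted p = 0.083), Itga3 (-0.94, 0.0582) and Gas2l3 (1.02, 0.19) did not pass (limma).

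Intermediate filament genes, whose products plakins bind, went both ways, with 6 of 10 negative and a median of -0.33. Peripherin (Prph), the filament protein of small sensory neurons and also 1 of the sensory neuron markers, stood at -1.45 (SE 0.33, adjusted p = 0.0593, limma) and was lower on every dt27J array than on any WT array. Vimentin (Vim), the filament protein of glia and fibroblasts, stood at 0.74 (SE 0.25, adjusted p = 0.115) and was higher on every dt27J array. Gfap, the filament protein of astrocytes, which is also 1 of the 8 spinal cord markers, stood at -2.92 (SE 0.83, adjusted p = 0.0843), with -4.40 in the first date and 0.023 in the second. It was not well above background on dt27J 2, so the dt27J level in the first date rests on a signal at the detection limit.

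Microtubule end-binding genes were evenly split, with 6 of 12 negative and a median of -0.21. Gas2 stood at 1.15 (SE 0.27, adjusted p = 0.0612), Gas2l1 at -0.88 (SE 0.21, adjusted p = 0.0620) and Mapre3, the neuronal end-binding protein EB3, at -0.81 (SE 0.22, adjusted p = 0.0784). Among 8 genes for cytoskeletal and coat proteins chosen as dystonin partners, 4 were negative and the median was 0.065. Dctn1, the large dynactin subunit, stood at -1.46 (SE 0.29, adjusted p = 0.0519) and was lower on every dt27J array. Actn1, an actin cross-linker, stood at -0.42 (SE 0.19, adjusted p = 0.210). Map1b, a microtubule-associated protein of growing axons, stood at 0.64 (SE 0.32, adjusted p = 0.241) on its brightest probe and at -1.29 on another.

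Of 7 measured genes on the list chosen for hemidesmosomes and related integrins, 3 were negative. The list's median was 0.68, with 0.52 in the first date and -0.54 in the second. Itga6, a laminin receptor subunit, stood at 1.03 (SE 0.23, adjusted p = 0.0582), Itgb1 at 0.82 (SE 0.26, adjusted p = 0.103) and the brightest Itga3 probe at -0.94 (SE 0.21, adjusted p = 0.0582). Of 12 desmosome genes, which serve desmoplakin's junction, 6 were tested, and Dsg1a, Dsg3 and Dsc1 were not well above background on any array. The desmosome median was -0.33, with plakophilin 3 (Pkp3) at -0.94 (SE 0.35, adjusted p = 0.147), Pkp2 at -0.34 (SE 0.20, adjusted p = 0.304) and Perp at -0.32 (SE 0.19, adjusted p = 0.306).

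Genes of the cornified envelope and epithelial keratins, the setting of periplakin and envoplakin, had 9 of 14 negative and a median of -0.14. Keratin 1 (Krt1) stood at -0.92 (SE 0.20, adjusted p = 0.0574), transglutaminase 1 (Tgm1), well above background on 3 dt27J arrays and 1 WT array, at 0.92 (SE 0.22, adjusted p = 0.0634) and Krt15 at 0.63 (SE 0.24, adjusted p = 0.149). The nuclear envelope genes of the LINC complex, which includes a partner of plectin, had 2 of 8 negative and a median of 0.14. Syne1 stood at -0.52 (SE 0.21, adjusted p = 0.170), Sun2 at 0.45 (SE 0.21, adjusted p = 0.208) and Syne2 at 0.58 (SE 0.27, adjusted p = 0.226).

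**Figure D5:**
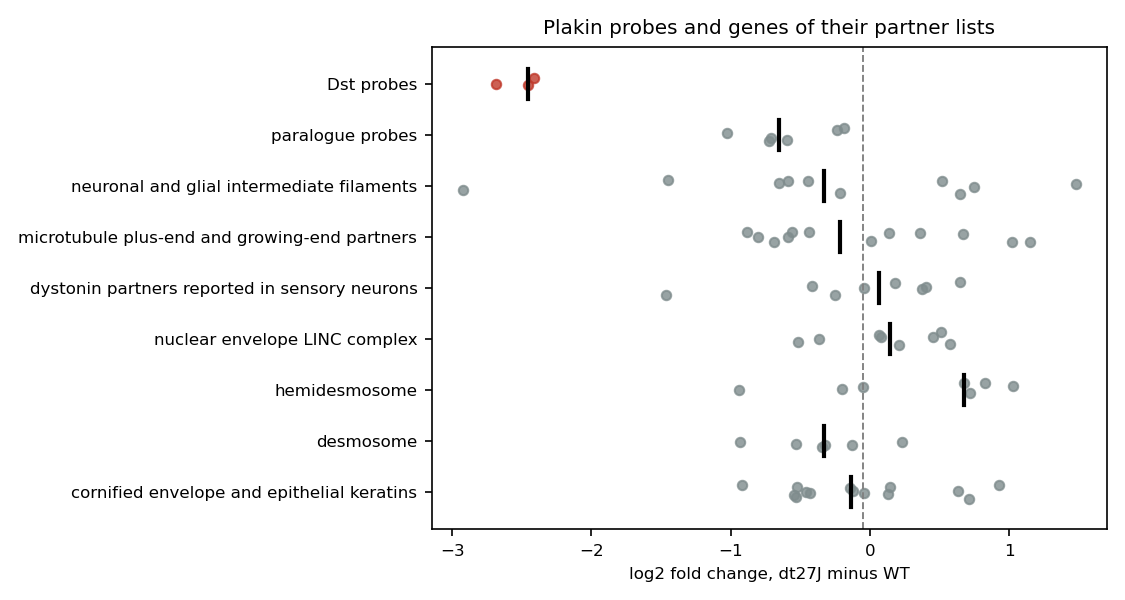
Log2 fold change of dt27J minus WT for the 3 Dst probes (red), the 6 paralogue probes and the genes of 7 partner lists by their brightest tested probe (grey), with the median of each row as a black bar and the median of all 26248 tested probes, -0.050, as a dashed line. The Dst probes lie between -2.68 and -2.42, and Gfap at -2.92 is the only other point below -2.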

How the data were processed

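Total RNA of 6 ganglion samples, 300 ng each, was labelled with Cy3 and hybridised to 1 single-colour Agilent array per sample, per the labels' protocols. Agilent Feature Extraction, version 10.5.1.1 per the submitters' processing notes, produced the deposited text files, which hold a processed intensity with the background subtracted, not normalized between arrays. A table of the authors' own log2 values, deposited for all arrays together, is centred on each probe's median, and how it was otherwise normalized is not stated in the labels. Its columns have medians of -0.0041 to 0.0053, and slopes of 0.71 to 0.76 against the centred scanner values. Other deposited columns, per the file headers, are flags of the scanner software and the median intensities of spot and local background.

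The main value was log2 of the processed intensity minus the array's 75th percentile, which lay between 369.5 and 580. Control spots and outlier spots were left out and repeated spots were averaged. Probes well above background on all 3 arrays of a genotype were tested (26248 of 41174), and per array 63.1% to 71.4% of probes met that call. No probe was saturated, and the number of arrays limits the precision. Label date, slide and scan time split the arrays the same way and cannot be told apart. No source says whether a date was a litter. Probes were named through RefSeq transcripts of GRCm38.p6, which named 24836, while the array annotation is from build mm9.

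Differences were tested with limma 3.58.1 in R 4.3.3, with genotype and date as terms and Benjamini-Hochberg adjustment over all tested probes, and the code was tested on simulated data. Permutation tests used scipy 1.17.1. In the partner lists the genes named were those past the threshold and the 3 of smallest p, by the brightest probe. The members, lists and tests were chosen with earlier results of these data known. Alternatives covered the date and replicate blocks, background correction, scaling, the filter on dim probes, the authors' values, array weights and leaving out arrays. The values of 1 marker gene are not reported here.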

Additional observations from a re-analysis of the deposited data

Results flagged for a closer look

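The brighter Evpl probe, A_51_P324838, went in opposite directions in the 2 dates, with dt27J 1 and 2 above WT 1 and 2 (0.27) and dt27J 3 below WT 3 (-1.10). The interaction was -1.37 on the log2 scale, and its adjusted p of 0.0944 (limma) missed the threshold. The dimmer Evpl probe stood at -0.55 and -1.08 in the 2 dates. Gfap stood at -4.40 in the first date and 0.023 in the second, an interaction of 4.42 (adjusted p = 0.0203, limma), with dt27J 2 not well above background, beside the spinal cord list that was high in WT 1 and WT 2 only. Syne2, a nuclear envelope gene, stood at 0.91 in the first date and -0.094 in the second, an interaction of -1.004 (adjusted p = 0.162, limma).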

How the results depend on the processing

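With 3 arrays per genotype the calls lay close to the threshold, and the 3 Dst probes were negative under every alternative that tested them. The counts over all tested probes, plakin probes and partner genes were 838, 3 and 0. They were 14, 1 and 0 without the date block, 355, 1 and 2 after normexp, 1390, 3 and 6 after normexp with high local backgrounds replaced, 977, 3 and 1 after quantile normalization, and 761, 3 and 0 after scaling to the array median. They were 0, 0 and 0 without a filter on dim probes, with 8485 probes at an unadjusted p under 0.05, and 806, 1 and 1 with only probes well above background on all 6 arrays, where the dimmer Dst probes could not enter. They were 1175, 3 and 3 with the authors' values, 12199, 6 and 36 with array weights, whose convergence tolerance limma did not reach, and 6860, 5 and 23 without both arrays of the second date. Leaving out 1 array gave 0 to 6833, 0 to 5 and 0 to 23. The counts of 0 probes came without dt27J 1 and without WT 2, with 4481 and 5035 probes at an unadjusted p under 0.05, and the counts of 6803 and 6833 without dt27J 3 and without WT 3. The dimmer Dst probes, at -2.42 and -2.46, lost the call without the date block (adjusted p = 0.0515 and 0.0586), and all 3, with the brightest at -2.68, lost it without a filter (0.0933 to 0.0988). After normexp, with its offset of 50, the dimmer ones stood at -0.75 and -0.64, and at -1.03 and -0.90 with high local backgrounds replaced. The causes of these shifts were not tested. Leaving out 1 array placed the Dst probes at -3.00 to -2.51, -2.77 to -2.22 and -2.91 to -2.02, the Plec probes A_52_P71869 and A_52_P380502 at -1.05 to -0.43 and -1.22 to -0.76, and A_51_P324838 of Evpl at -0.43 to 0.27. With array weights the Plec probes stood at -0.67, -0.86 and -1.36 and passed, and without the second date A_52_P71869 and A_52_P380502 stood at -1.05 and -1.22. A_51_P324838 turned to 0.037 after normexp, 0.25 with array weights and 0.27 without the second date.

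No pairing by replicate number was apparent. Deviations from the genotype means correlated at 0.22, -0.15 and 0.063 for numbers 1, 2 and 3. They correlated at 0.23 for dt27J 2 with WT 1, and at 0.21 for dt27J 3 with WT 2, which is of the other date. Deviations from a mean of 3 arrays depend on one another, so these values cannot exclude a pairing. With the replicate number as a block the counts were 2, 0 and 0, and the Dst probes stood at -2.68, -2.42 and -2.46 (adjusted p = 0.0980 to 0.110).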
